A study of Mus musculus with 16 samples.

Results

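A set of 9 genes of retinoic acid signalling and of the epicardium was followed through the hearts of pressure-overloaded and drug-treated mice. The genes were chosen by name with earlier results of these data known. All 9 symbols were found among the 22372 protein-coding genes of the deposited table. They were Aldh1a1, Aldh1a2, Crabp2, Rarb, Cyp26b1, Dhrs3, Wt1, Upk3b and Msln. RNA came from pieces of the heart ventricles of male C57BL/6J mice that were 10 to 12 weeks old when the experiment began. There were 16 libraries, each from its own mouse, in 4 groups of 4. Sham-Veh mice had the operation without the constriction and received vehicle, a solution of DMSO and dextrose. Sham-THZ1 mice had the same sham operation and received THZ1. TAC-Veh mice had transverse aortic constriction (TAC), in which a suture narrows the aortic arch so that the left ventricle must pump against a raised pressure, and received vehicle. TAC-THZ1 mice had TAC and received THZ1. The labels give 2 intraperitoneal doses of THZ1 a day, 10 mg/kg each, starting on postoperative day 1 and ending on day 60. The drug binds covalently to the transcriptional kinase Cdk7, and also to Cdk12 and Cdk13, all of which phosphorylate RNA polymerase II.

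Retinoic acid is made from vitamin A. Retinol is oxidised to retinal by retinol dehydrogenases, and retinal to retinoic acid by the aldehyde dehydrogenases Aldh1a1, Aldh1a2 and Aldh1a3. Dhrs3 runs the earlier step backwards by reducing retinal to retinol, and Cyp26 enzymes such as Cyp26b1 break retinoic acid down. Crabp2 carries retinoic acid to the nucleus, where receptors such as Rarb pair with the retinoid X receptors and bind response elements in DNA. The epicardium is the mesothelial sheet that covers the heart. In the embryo it is a main source of retinoic acid through Aldh1a2, and it turns on genes such as Wt1 and Aldh1a2 again after injury. Upk3b and Msln encode surface proteins of mesothelial cells, and Wt1 encodes a transcription factor that marks the epicardium but is also found in some endothelial cells of the heart.

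The Rarb promoter is shown because it holds the classical response element through which retinoic acid acts on this receptor gene. The element is a direct repeat of a short half-site with 5 bases between the copies. The half-site was searched in 4 forms, the consensus AGGTCA and the forms AGTTCA and then GGGTCA and finally GGTTCA. Any of them, then 5 bases of any kind, then again any of them counted as a match on either strand, in RefSeq promoter windows of GRCm38.p6 that ran from 250 bases before to 50 bases after each gene start. The repeat was in 32 of 32851 windows, which is 0.0974%. Windows were given for 6 of the 9 genes (9 windows), and 1 of those 9 windows, that of Rarb, held the repeat, at bases 53 to 37 before the start. No window was used for Crabp2, Wt1 and Msln. Of the other listed retinoid genes, Cyp26a1, which encodes a retinoic acid hydroxylase, held it on the opposite strand at bases 32 to 16 before the start. The 100 bases before each start are printed on the strand of the gene, with the repeat in capitals.
Rarb, chr14:16575477-16575576, minus strand: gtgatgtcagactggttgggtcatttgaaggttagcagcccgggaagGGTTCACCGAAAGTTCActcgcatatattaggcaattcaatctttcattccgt
Cyp26a1, chr19:37697708-37697807, plus strand: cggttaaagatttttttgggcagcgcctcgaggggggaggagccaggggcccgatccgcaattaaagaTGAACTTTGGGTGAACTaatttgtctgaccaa
A match is a description of the letters and not evidence of binding. The capitals of Cyp26a1 read as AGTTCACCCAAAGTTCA on the other strand.

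The values are reads per gene divided by a size factor of the library, called normalized counts, and whole reads were recovered from them. The libraries held 21.4 to 35.8 M (mega) reads in protein-coding genes, with a median of 28.2 M, of which 33.2% to 44.7% came from mitochondrial genes. Markers of lung and thymus did not exceed 3 reads in any library, and adipocyte markers did not exceed 19. Of 5 atrial markers, Bmp10, Sln and Myl7 reached at most 1, 4 and 9 reads and Myl4 at most 69, while Nppa, which a loaded ventricle is also known to express, reached 169930 and made up most of an atrial sum of 2771 to 4577 normalized counts in Sham-Veh and 49247 to 199870 in TAC-Veh. A change was tested with limma across 13331 genes, and a gene was called higher or lower at a Benjamini-Hochberg adjusted p under 0.05 over all of them. Changes are differences of log2(normalized count + 1). On this scale those of low genes depend on the added 1 and on counts of 0, and can come out too small or too large. The mice were separate animals, so the tests measure the spread between mice. All 9 genes passed the filter of 10 normalized counts in at least 4 libraries. Aldh1a1, Aldh1a2, Rarb, Cyp26b1, Dhrs3 and Wt1 passed in all 16 libraries, Upk3b in 9 and Msln in 8. Crabp2 passed in 5, of which 4 were TAC-Veh libraries, so its entry into the test rested on the group in which it was high, and its calls are given with the fit that used no filter.

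Per kilobase of exon, the order of the mean levels in Sham-Veh was Dhrs3 at 559 normalized counts per kb, Aldh1a1 at 255, Rarb at 126, Cyp26b1 at 52.7, Aldh1a2 at 43.9, Wt1 at 23.5, Upk3b at 2.54, Msln at 2.32 and Crabp2 at 1.06. The libraries of neighbours in this order overlapped for Cyp26b1 with Aldh1a2, Upk3b with Msln and Msln with Crabp2, and did not overlap for the other neighbours. In Sham-Veh, the reductase that removes retinal was thus the most abundant of the 9 genes per length and the binding protein Crabp2 the least. In TAC-Veh, Aldh1a1 at 631 per kb stood beside Dhrs3 at 534, with overlapping libraries, and Aldh1a2 at 160 per kb stood beside Rarb at 78.6, also with overlap. Cyp26b1 was at 13.8 per kb there, among Wt1, Crabp2, Msln and Upk3b, which lay between 25.2 and 9.65 with overlap between each pair of neighbours. In TAC-THZ1, the order again began with Dhrs3 at 590.4, Aldh1a1 at 305 and Rarb at 134 per kb. In Sham-THZ1, the means were 662 for Dhrs3, 237 for Aldh1a1, 133 for Cyp26b1 and 119 for Rarb.

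**Figure D1:**
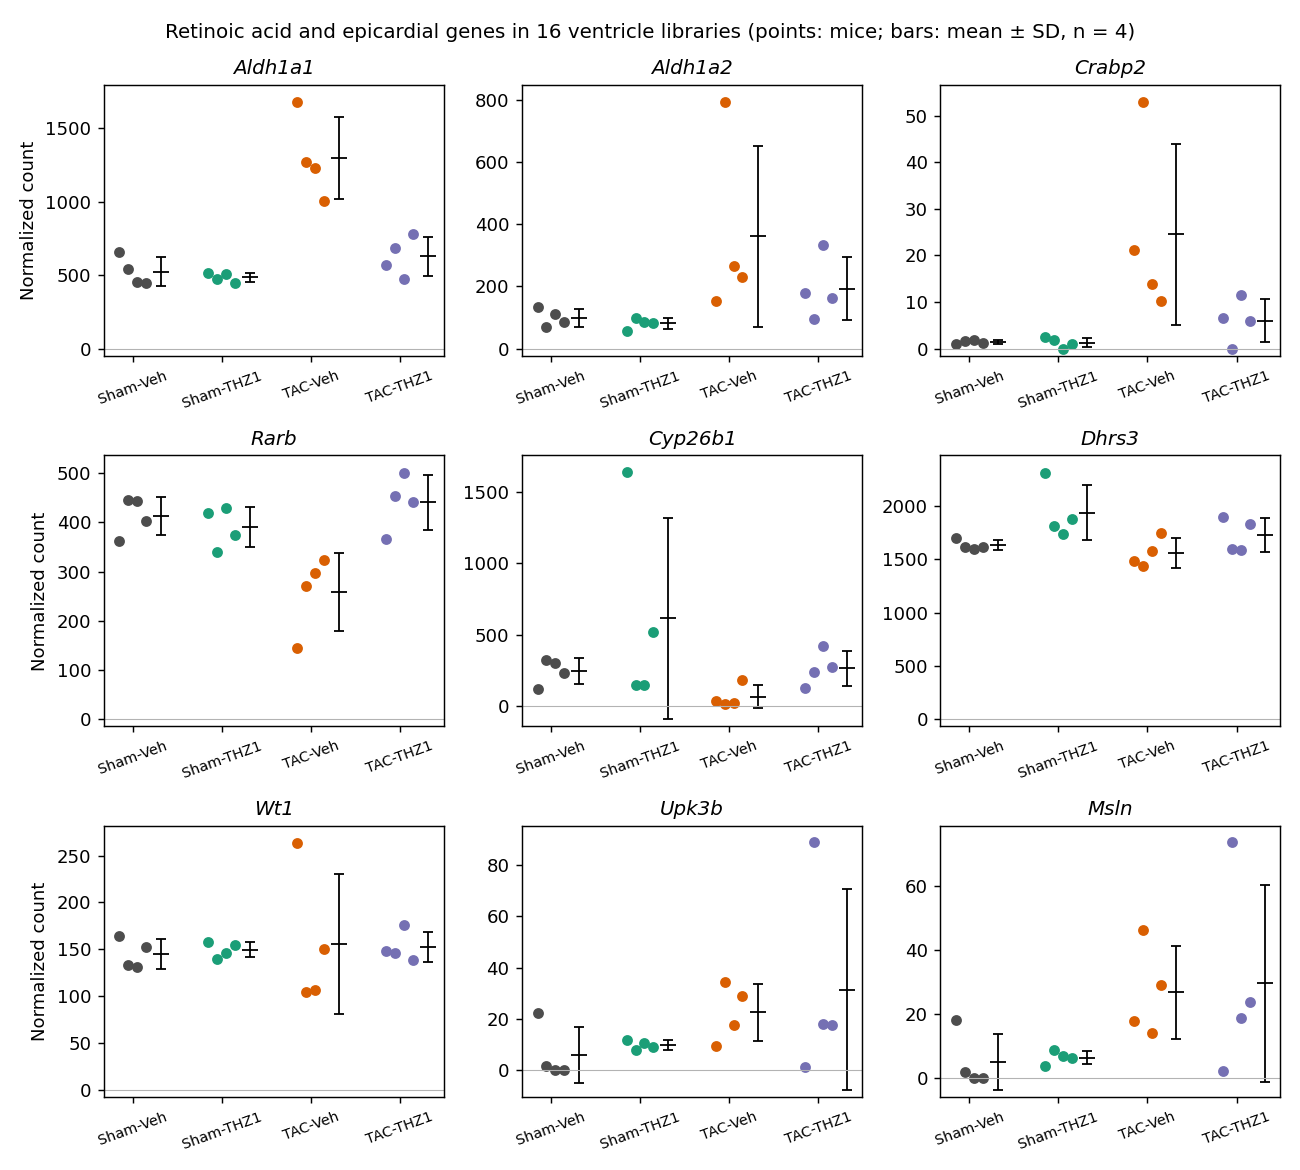
Normalized counts of the 9 genes (y axes, 1 panel per gene) by group (x axis). Coloured points are mice and black bars the mean ± SD (n = 4). The TAC-Veh points of Aldh1a1 (1007 to 1678) lie above all others, those of Rarb (145 to 324) lie below all others, and Cyp26b1, Upk3b and Msln spread widely within groups.

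Pressure overload was examined by comparing TAC-Veh with Sham-Veh. Of the 9 genes, 5 rose (Aldh1a1, Aldh1a2, Crabp2, Upk3b and Msln), 2 fell (Rarb and Cyp26b1), and Dhrs3 and Wt1 did not pass the test. Leaving aside Crabp2, which met the filter only through TAC-Veh, 4 of 8 rose and 2 fell. Of all genes tested, 45.0% were called in this comparison, 21.4% as higher and 23.6% as lower, so a call by itself was common. Where a change of at least 1 on the log2 scale was also asked for, 4.64% of all genes were called higher and 3.37% lower, and of the 9 genes 5 were called higher and only Cyp26b1 lower. The median change was 1.30 on the log2 scale over the 9 genes and -0.00302 over all genes tested. Because the 9 genes were chosen with earlier results known, these shares and medians are a description.

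All 3 genes of the retinaldehyde dehydrogenases that make retinoic acid rose. Aldh1a1 (chr19:20676451-20717952, plus strand, NCBIM37) read 659, 539.8, 453 and 445 normalized counts in the 4 Sham-Veh mice and 1678, 1267, 1231 and 1007 in the TAC-Veh mice. The groups did not overlap, with means of 524 ± 99.7 (SD, n = 4) and 1296 ± 279 (SD, n = 4). Aldh1a1 rose by 1.30 on the log2 scale (SE 0.16, adjusted p = 1.2e-05, limma). Of its 2014 sequences of 40 bases, the length of the reads, 10.2% also occurred in another gene, mainly Aldh1a7, which held 5 reads or fewer in every library. The other 8 genes shared none.

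Aldh1a2 (chr9:71063596-71144050, plus strand) read 133, 68.2, 111 and 85.0 in Sham-Veh and 154, 794, 266 and 232 in TAC-Veh. The lowest TAC-Veh mouse lay above the highest Sham-Veh mouse, and replicate 2 of TAC-Veh stood far above the other 3. The rise was 1.60 on the log2 scale (SE 0.42, adjusted p = 0.00505, limma). Aldh1a3, the remaining retinaldehyde dehydrogenase of the family, rose by 1.67 (SE 0.24, adjusted p = 3.7e-05, limma), from 24.9 to 32.9 in Sham-Veh to 73.3 to 173 in TAC-Veh. Of 17 other listed genes of retinoid synthesis, 12 were tested, and of these 2 rose and 3 fell. These counts are near the shares of all genes tested, 21.4% called higher and 23.6% called lower. The risers were Aldh1a3 and the retinal reductase Rdh11 (0.84), and the genes that fell were Dhrs4 (-0.49), Rdh5 (-0.37) and Dhrs7 (-0.31), which are dehydrogenases of the short-chain family. Rdh10, the main retinol dehydrogenase of the embryo, differed by -0.15 (adjusted p = 0.378, limma).

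Dhrs3 (chr4:144482730-144518112, plus strand) read 1703, 1620.3, 1599 and 1619.9 in Sham-Veh and 1485, 1436, 1580.2 and 1752 in TAC-Veh. The groups overlapped and the difference was -0.07 on the log2 scale (95% confidence interval -0.26 to 0.12, adjusted p = 0.552, limma). Its pooled SD within groups was 0.131 on the log2 scale, the smallest of the 9 genes.

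Crabp2 is the member of the binding proteins. Crabp2 (chr3:87752588-87757298, plus strand) had 1, 2, 2 and 1 reads in Sham-Veh and 18, 74, 14 and 12 reads in TAC-Veh. All 4 TAC-Veh mice lay above all Sham-Veh mice. The summed reads, 118 against 6, gave a ratio per unit of size factor of 18.6 (95% exact interval 8.29 to 51.7, for counting error only). The fitted rise was 3.15 on the log2 scale (SE 0.68, adjusted p = 0.00138, limma), and it depends on the pseudocount because the sham levels are so low: it lay between 1.45 and 4.12 over the alternatives. In the fit with no filter, where the choice of genes did not depend on TAC-Veh, the adjusted p was 0.00118 (limma). Of the 11 listed genes of retinoid uptake, transport and storage, 8 were tested, 5 rose and 1 fell, and 3 rose without replicate 2 of Sham-Veh. Among those that rose were Ttr (1.89) and Rbp4 (1.75), which carry retinol in plasma, the receptor Lrp1 (0.52) and the fatty acid-binding protein Fabp5 (0.43). Rbp4 and Ttr met the filter only with the TAC-Veh libraries, and without them 3 of 6 rose. With no filter their adjusted p-values were 0.0285 and 0.00662 (limma). Lipoprotein lipase, Lpl, fell by 0.74. Over all genes tested, 21.4% were called higher and 23.6% lower. Crabp1, Stra6 and Lrat, which bind retinoic acid, import retinol and esterify it, were too low for the test, with at most 3, 12 and 15 reads in a library. Without the filter Stra6 alone of the 3 passed, at 1.54 (adjusted p = 0.00180, limma), with 2, 3, 2 and 2 reads in Sham-Veh and 7, 12, 9 and 8 in TAC-Veh.

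The receptor Rarb (chr14:17263356-17651381, minus strand) read 363, 446, 443 and 402 in Sham-Veh and 145, 271, 296 and 324 in TAC-Veh. Every TAC-Veh mouse was below every Sham-Veh mouse. Rarb fell by 0.73 on the log2 scale (SE 0.19, adjusted p = 0.00446, limma), with group means of 413 ± 39.3 and 259 ± 79.2 (SD, n = 4). Of the 11 other receptors and cofactors listed, all were tested, 9 fell and none rose, against 23.6% and 21.4% of all genes tested. The retinoid X receptors fell by 0.67 for Rxra, by 0.57 for Rxrg and by 0.20 for Rxrb, the last with an adjusted p of 0.0457 (limma). The coactivators Ncoa1 and Ncoa2 fell by 0.58 and 0.52. Rara differed by 0.11 (adjusted p = 0.438, limma) and Rarg by -0.32 (adjusted p = 0.0863, limma). The median of the 11 genes was -0.32. Over the 28 alternatives, between 6 and 10 of the 11 fell and none rose, with 6 without replicate 2 of Sham-Veh or replicate 1 of TAC-Veh, and the median lay between -0.45 and -0.27.

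Of the degrading enzymes, Cyp26b1 (chr6:84521938-84543740, minus strand) read 118, 321, 299 and 233 in Sham-Veh and 34.1, 16.4, 19.8 and 184 in TAC-Veh. Replicates 1, 2 and 3 of TAC-Veh lay below every Sham-Veh mouse, while replicate 4 lay within the sham range. Cyp26b1 fell by 2.54 on the log2 scale (SE 0.75, adjusted p = 0.0115, limma), and by 3.28 without that mouse (adjusted p = 0.000839). The count models did not call it, with adjusted p = 0.0624 in edgeR and 0.0503 in DESeq2. Cyp26a1, the relative whose promoter also holds the repeat, had 0, 0, 2 and 2 reads in Sham-Veh and 10, 54, 9 and 21 in TAC-Veh. All TAC-Veh mice lay above all Sham-Veh mice, opposite in direction to Cyp26b1. Cyp26a1 did not pass the filter, and in the fit without a filter its change was 3.33 on the log2 scale (adjusted p = 0.000734, limma). Cyp26c1 had at most 1 read in a library.

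The retinoic acid response list held 14 genes, mostly reported targets, of which 10 were tested, 2 rose and 3 fell. Tgm2, transglutaminase 2, rose by 0.73, and Rarres2, which encodes chemerin, rose by 0.75. Ret, a receptor tyrosine kinase gene, fell by 1.50, the cardiac transcription factor Tbx5 by 1.19 and the homeobox gene Meis2 by 0.53. The 5 called of 10 stand beside the 45.0% of all genes called in this comparison. Without replicate 4 of TAC-Veh, 5 of the 10 fell.

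Of the epicardial genes, Wt1 (chr2:104966686-105013773, plus strand) read 164, 133, 131 and 153 in Sham-Veh and 263, 104, 106 and 149.9 in TAC-Veh. Replicate 1 of TAC-Veh lay above all sham mice, and replicates 2 and 3 lay below them. The difference was -8.1e-05 on the log2 scale (95% confidence interval -0.44 to 0.44, adjusted p = 1.0, limma), and its sign depended on the scaling and on the mouse left out.

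Upk3b (chr5:136514366-136521173, plus strand) had 21, 2, 0 and 0 reads in Sham-Veh and 8, 48, 18 and 34 reads in TAC-Veh. Msln (chr17:25885559-25891272, minus strand) had 17, 2, 0 and 0 reads in Sham-Veh and 15, 65, 14 and 34 in TAC-Veh. For both genes replicate 1 of Sham-Veh reached into the TAC-Veh range, and a count of 0 allows up to 3 reads. Upk3b rose by 2.94 on the log2 scale (SE 0.98, adjusted p = 0.0229, limma), and this call ended with edgeR (adjusted p = 0.0962), DESeq2 (0.182) or a pseudocount of 10 (0.0693). It also ended without replicate 3 of Sham-Veh (0.0753), replicate 4 of Sham-Veh (0.0761) or replicate 2 of TAC-Veh (0.0603). The change of Upk3b was smaller with edgeR (2.04), DESeq2 (1.94) and a pseudocount of 10 (1.16). Msln rose by 3.24 (SE 0.89, adjusted p = 0.00753, limma), and DESeq2 did not call it (0.0560) and gave a smaller change of 2.47. Without replicate 1 of Sham-Veh the changes were 3.96 for Upk3b and 4.19 for Msln.

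Of 24 other listed genes of epicardium and mesothelium, 13 were tested, 6 rose and none fell, with a median of 1.17. Over all genes tested, 21.4% were called higher and 23.6% lower. Lrrn4 met the filter only with the TAC-Veh libraries, and without it 6 of 12 rose, with a median of 0.78. The median of all 13 was 0.38 with a pseudocount of 10 and 0.76 without replicate 2 of TAC-Veh, with 6 higher in both. Krt18, a keratin of simple epithelia, rose by 3.75 from between 3.54 and 9.55 normalized counts in Sham-Veh to between 38.6 and 206 in TAC-Veh. It is among the 6 that rose, and it met the filter in 4 TAC-Veh and 4 TAC-THZ1 libraries but in no sham library. Its entry into the test thus rested on the constricted hearts, in which it was high. The lubricating proteoglycan Prg4 rose by 1.99, the guidance factor Sema3d by 1.93 and Aldh1a3, which is also on the synthesis list, by 1.67. The epicardial transcription factors Tbx18 and Tcf21, which were looked up after their values were seen, differed by 0.01 and 0.38 and were not called.

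Other cell type markers moved in the same comparison. The summed level of 8 fibroblast markers was 56968 to 63771 in Sham-Veh and 84826 to 108157 in TAC-Veh, with 5 of 8 called higher, and that of 8 cardiomyocyte markers was 1435619 to 1539477 and 799799 to 1137583, with 4 of 8 called lower. The 7 markers of valve and cartilage-like cells summed to 533 to 841 and to 7844 to 21221, with all 6 tested called higher. Of 7 endothelial markers 2 were called higher and 2 lower, and of 8 tested macrophage and leukocyte markers 3 were called higher. Of all genes tested, 21.4% were called higher and 23.6% lower. The part of these markers in the changes of the 9 genes was not tested. In these bulk samples a change in the number of cells of a type and a change in RNA per cell cannot be told apart.

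**Figure D2:**
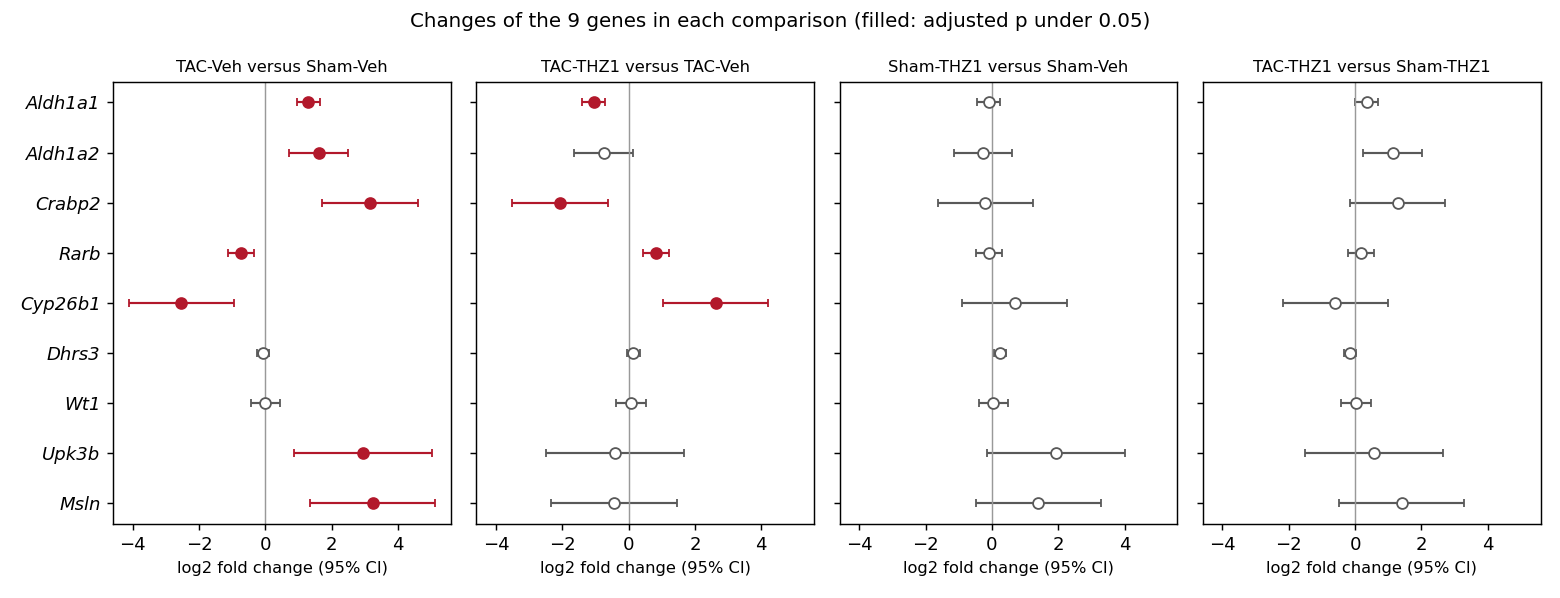
Log2 fold changes (x axis) of the 9 genes (y axis) in the 4 comparisons, with 95% confidence intervals from limma. Filled red points have an adjusted p under 0.05. In TAC-THZ1 versus TAC-Veh, Aldh1a1 (-1.05) and Crabp2 (-2.07) lie left of 0 and Rarb (0.82) and Cyp26b1 (2.63) right of it, and no point is filled in either of the comparisons on the right.

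The effect of THZ1 in constricted hearts was examined by comparing TAC-THZ1 with TAC-Veh. Aldh1a1 and Crabp2 fell, Rarb and Cyp26b1 rose, and the other 5 genes did not pass the test. Of all genes tested, 29.4% were called, 15.1% as higher and 14.2% as lower, and the list counts below stand beside these shares. The median change was -0.41 over the 9 genes and 0.01 over all genes. With a change of at least 0.89 on the log2 scale also asked for, the shares were 1.85% higher and 3.62% lower, and of the 9 genes Cyp26b1 was called higher and Aldh1a1 and Crabp2 lower. Crabp2, which is part of the median too, met the filter only through TAC-Veh. Leaving it aside, Aldh1a1 was the only member called lower, with or without the fold threshold. This comparison and the one of TAC-Veh with Sham-Veh share the 4 TAC-Veh libraries, so opposite signs in them are not independent.

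Aldh1a1 read 566, 686, 476 and 779.8 in TAC-THZ1, below all 4 TAC-Veh mice. It fell by 1.05 on the log2 scale (SE 0.16, adjusted p = 0.000318, limma), to a mean of 627 ± 133 (SD, n = 4). Aldh1a2 read 180.2, 94.2, 334 and 163 in TAC-THZ1, a range that overlapped that of TAC-Veh. Its difference was -0.75 (95% confidence interval -1.63 to 0.13, adjusted p = 0.185, limma). Aldh1a3 read between 25.5 and 36.0 in TAC-THZ1, below every TAC-Veh mouse, and fell by 1.60 (SE 0.24, adjusted p = 0.000244, limma). Of the 12 tested synthesis genes, 5 rose and 2 fell. The number that rose was 1 with the groups compared alone, and 3 with array weights or without replicate 2 of TAC-Veh, replicate 2 of TAC-THZ1 or replicate 4 of TAC-THZ1. Rdh11 fell by 0.60, while Rdh5 (0.47), Dhrs7 (0.38), Rdh14 (0.32) and Dhrs4 (0.32) were among those that rose.

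Dhrs3 read 1896, 1596, 1591 and 1829.8 in TAC-THZ1, overlapping TAC-Veh, and differed by 0.14 (95% confidence interval -0.04 to 0.33, adjusted p = 0.234, limma). Crabp2 had 6, 0, 14 and 6 reads in TAC-THZ1. Replicate 3 of TAC-THZ1 lay within the TAC-Veh range and the other 3 below it. The ratio of summed reads to TAC-Veh was 0.248 (95% exact interval 0.156 to 0.381, for counting error only). Crabp2 fell by 2.07 on the log2 scale (SE 0.68, adjusted p = 0.0310, limma). With no filter the adjusted p was 0.0304 (limma). The call ended without replicate 1 of TAC-Veh (0.0524), replicate 2 of TAC-Veh (0.116) or replicate 2 of TAC-THZ1 (0.0992), and with the groups compared alone (0.109) or with array weights (0.111). Lrp1 fell by 0.79 and Fabp5 by 0.54, and of the 8 tested genes of uptake, transport and storage 3 fell and none rose. With the groups compared alone 1 fell, and 2 rose with DESeq2 or without replicate 1 of TAC-Veh.

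Rarb read 367, 453, 501 and 441 in TAC-THZ1, above all 4 TAC-Veh mice, with replicates 2 and 3 also above the Sham-Veh range. It rose by 0.82 on the log2 scale (SE 0.19, adjusted p = 0.00408, limma) to a mean of 441 ± 55.6 (SD, n = 4). Of the 11 other receptors and cofactors, 4 rose and none fell. These were Rxrg (0.68), Rxra (0.30), Rxrb (0.27) and Ncoa2 (0.22). The number that rose was 1 with the groups compared alone, and 2 with array weights or without replicate 1 or 2 of TAC-Veh or replicate 2 or 4 of TAC-THZ1, and it was 6 without replicate 4 of TAC-Veh. With DESeq2, and without replicate 3 of TAC-Veh, 1 of the 11 fell. The median was 0.20, and 0.06 without replicate 1 of TAC-Veh. Cyp26b1 read 124, 241, 418 and 271 in TAC-THZ1, and replicate 4 of TAC-Veh, at 184, lay within that range. Cyp26b1 rose by 2.63 (SE 0.75, adjusted p = 0.0151, limma), by 3.38 without replicate 4 of TAC-Veh, and by 2.24 with an adjusted p of 0.0569 without replicate 2 of TAC-Veh. The call also ended with edgeR (0.0665), DESeq2 (0.0506) and array weights (0.103). Cyp26a1 had 0, 2, 10 and 10 reads in TAC-THZ1, and in the fit without a filter its difference was -2.02 (adjusted p = 0.0336, limma). Of the 10 tested response genes, Tbx5 (0.62) and Meis2 (0.44) rose and Tgm2 (-0.29) fell, while 15.1% of all genes rose and 14.2% fell. No response gene fell with array weights or the groups compared alone. The same held without replicate 1 or 2 of TAC-Veh or replicate 2 or 4 of TAC-THZ1. With array weights, the groups compared alone or without replicate 2 of TAC-THZ1, 1 response gene rose.

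None of the 3 epicardial and mesothelial genes, Wt1, Upk3b and Msln, was called. Wt1 read 149, 146, 176 and 139 in TAC-THZ1, with a difference of 0.07 (95% confidence interval -0.38 to 0.51, adjusted p = 0.836, limma). Without replicate 1 of TAC-Veh, the mouse with 263, Wt1 was called higher at 0.35 (adjusted p = 0.0492). Upk3b had 1, 70, 22 and 18 reads in TAC-THZ1, and Msln had 2, 58, 23 and 24. For both, replicate 2 of TAC-THZ1 was the highest mouse of its group and replicate 1 the lowest. The differences were -0.41 for Upk3b (95% confidence interval -2.49 to 1.67) and -0.44 for Msln (-2.33 to 1.45), which span several fold in both directions, and edgeR and DESeq2 gave positive values. On the epicardial and mesothelial list, 6 of the 13 tested genes fell and none rose, among them Krt18 (-2.18), Aldh1a3 (-1.60), Sema3d (-1.29) and Prg4 (-1.17). The cardiomyocyte markers summed to 1257364 to 1563742 in TAC-THZ1, above all TAC-Veh mice, with 5 of 8 called higher, the direction of Rarb and the retinoid X receptors. The fibroblast markers summed to 61081 to 83079, with 5 of 8 called lower, and the valve and cartilage-like markers to 1039 to 2580, with 5 of 6 called lower. With the groups compared alone, 1 cardiomyocyte and 2 fibroblast markers were called. Their part in these changes was not tested.

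**Figure D3:**
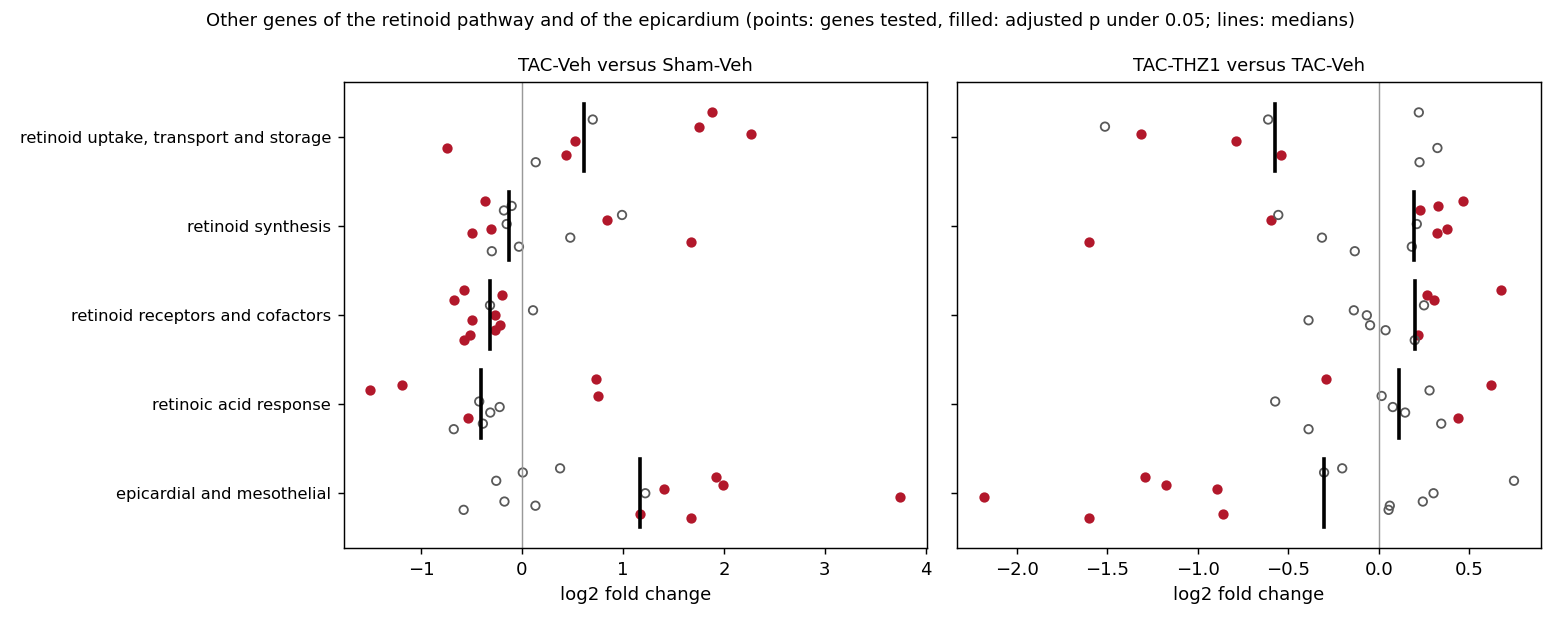
Log2 fold changes (x axes) of the tested genes of 5 lists (rows) in TAC-Veh versus Sham-Veh (left) and TAC-THZ1 versus TAC-Veh (right). Each point is a gene, filled red points have an adjusted p under 0.05, and black lines are the list medians. In the left panel 9 of 11 receptors and cofactors are filled left of 0 and 6 of 13 epicardial and mesothelial genes right of 0.

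THZ1 without constriction was examined by comparing Sham-THZ1 with Sham-Veh. None of the 9 genes was called by limma, edgeR or DESeq2, against 0.0675% of all genes tested (0.0225% higher and 0.0450% lower). An unadjusted p under 0.05 was held by 917 of all 13331 genes in limma, 921 in edgeR and 884 in DESeq2. Of the 9 genes, 1 had one in each of the 3 tools. That gene was Dhrs3, at 2316, 1816, 1739 and 1883 in Sham-THZ1, each above the highest Sham-Veh mouse. Its difference was 0.24 on the log2 scale (SE 0.09, adjusted p = 0.657, limma). Over 28 alternatives in limma, edgeR and DESeq2 the lowest adjusted p of Dhrs3 was 0.0529, so none called it. The main fit shares its estimate of the spread with the TAC groups. With the sham groups compared alone, 287 of all genes were called higher and 178 lower. Aldh1a1 read 514, 472, 510.2 and 449, a difference of -0.09 (95% confidence interval -0.43 to 0.25). Aldh1a2 read 56.1, 97.7, 86.8 and 83.1, a difference of -0.28 (-1.15 to 0.60). Both intervals include 0.

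Rarb read 419, 341, 430.1 and 375 in Sham-THZ1, a difference of -0.08 (95% confidence interval -0.47 to 0.31). Wt1 read 157, 140.0, 146 and 155, a difference of 0.05 (-0.40 to 0.49). Crabp2 had 2, 2, 0 and 1 reads, at or under 3 in both sham groups, so the fitted value plotted for it is not read as a fold. Cyp26b1 was the most variable gene of this group, with 1642 normalized counts in replicate 1 and 146, 146 and 521 in the others, a difference of 0.70 (-0.89 to 2.28). Without that replicate the difference was -0.023. Upk3b had 10, 9, 8 and 9 reads and Msln 3, 10, 5 and 6, so both genes had reads in all 4 Sham-THZ1 mice and in 2 of 4 Sham-Veh mice. Their differences were 1.95 (-0.13 to 4.03, adjusted p = 0.758) and 1.40 (-0.49 to 3.29, adjusted p = 0.819) by limma. None of the genes of the 5 tested retinoid and epicardial lists was called here.

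Pressure overload under THZ1 was examined by comparing TAC-THZ1 with Sham-THZ1. None of the 9 genes was called by limma or edgeR, against 24.2% of all genes tested (11.4% higher and 12.8% lower), and DESeq2 called Aldh1a2 (adjusted p = 0.0432). An unadjusted p under 0.05 was held by 5059 of all 13331 genes in limma, 5123 in edgeR and 5033 in DESeq2. Of the 9 genes, Aldh1a2 and Aldh1a1 had one in limma (4 genes did in edgeR and 4 in DESeq2). Their differences in limma were 1.13 (95% confidence interval 0.25 to 2.01, adjusted p = 0.0578) and 0.34 (0.00 to 0.69, adjusted p = 0.131). Aldh1a2 passed the threshold without replicate 1 of TAC-Veh (0.0325), replicate 2 of TAC-Veh (0.0162) or replicate 2 of TAC-THZ1 (0.0235), although the TAC-Veh mice enter this comparison only through the shared estimate of the spread. The difference was 1.28 for Crabp2 (-0.16 to 2.72), and without replicate 2 of TAC-THZ1, which had 0 reads, it was 2.06 (adjusted p = 0.0137). The ratio of its summed reads, 26 against 5, was 4.92 (95% exact interval 1.86 to 16.4, for counting error only). For Rarb the difference was 0.17 (-0.22 to 0.56), for Cyp26b1 -0.60 (-2.19 to 0.98), for Upk3b 0.58 (-1.50 to 2.66) and for Msln 1.40 (-0.49 to 3.29). Dhrs3 differed by -0.16 (-0.35 to 0.03) and Wt1 by 0.02 (-0.42 to 0.47). Of the 11 receptors and cofactors, 6 were lower in TAC-THZ1, among them Rxra (-0.53) and Ncoa1 (-0.46). Of the 10 tested response genes, 2 were higher and 3 lower, with Ret (-1.16) and Tbx5 (-0.63) among the lower. Every TAC-THZ1 mouse lay above every Sham-THZ1 mouse for Rarres2 and Tgm2. Of the 13 tested epicardial and mesothelial genes, 1 was higher and none lower. This was Krt18 (1.83), which met the filter only in constricted hearts.

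Whether the effect of THZ1 depended on surgery was tested as an interaction, the change with THZ1 in TAC minus that in sham. Aldh1a1 (-0.96, SE 0.23, adjusted p = 0.0177, limma) and Rarb (0.90, SE 0.26, adjusted p = 0.0398, limma) passed, against 10.0% of all genes tested (4.40% higher and 5.62% lower). With a size of at least 1 on the log2 scale also asked for, the shares were 0.953% and 2.19% and neither passed. The value of Aldh1a1 held in all 27 alternatives (adjusted p between 0.00269 and 0.0425). That of Rarb passed with edgeR and DESeq2, but missed the threshold without a filter on low counts and without 11 of the 16 libraries, each in turn, with adjusted p up to 0.0814. For Cyp26b1 the interaction was 1.93 (95% confidence interval -0.31 to 4.17) and for Crabp2 -1.87 (-3.90 to 0.16), so their calls in TAC do not show that the effect differed from that in sham. The other values were -0.48 for Aldh1a2, -0.09 for Dhrs3, 0.02 for Wt1, -2.35 for Upk3b (-5.30 to 0.59) and -1.84 for Msln (-4.51 to 0.83). Of the listed genes named here, those that passed in limma included Aldh1a3 (-1.49, adjusted p = 0.0126), Lrp1 (-1.07), Rdh11 (-0.74) and Dhrs7 (0.42). On the epicardial and mesothelial list, which also holds Aldh1a3, 4 of the 13 tested genes were called lower and none higher. No gene of the 11 receptors and cofactors passed. Cyp26a1 was at -3.20 (adjusted p = 0.0466, limma) in the fit with no filter.

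The 9 genes differed widely in how much mice of the same group varied. The pooled SD within groups on the log2 scale was 1.60 for Upk3b, 1.44 for Msln, 1.24 for Cyp26b1, 1.02 for Crabp2 and 0.68 for Aldh1a2. It was 0.33 for Wt1, 0.30 for Rarb, 0.26 for Aldh1a1 and 0.13 for Dhrs3, and the median of all genes tested was 0.161. Counting noise adds to the SD of Upk3b, Msln and Crabp2, which had few reads, but Cyp26b1 had between 109 and 1377 reads in the Sham-THZ1 mice alone.

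The genes were also compared in pairs once the group means were removed. Of the 36 pairs, 31 had a Pearson r under 0.5 in size over the 16 libraries, as a description without a test. The closest pair was Upk3b with Msln, with r = 0.96 and Spearman rho = 0.80. Without the 2 libraries farthest from the median level of the gene named first, r was 0.95. These libraries were picked before the group means were removed, so they need not hold the largest deviations. For Upk3b they were replicates 3 and 4 of Sham-Veh, with 0 reads, and replicate 2 of TAC-THZ1 was kept. Upk3b and Msln were each the nearest of all 13331 tested genes to the other. Neither varied with Wt1 (r = -0.07 and 0.00) or with Aldh1a2 (0.07 and 0.14), the other genes known from the epicardium. Aldh1a2 with Crabp2 (r = 0.60), Cyp26b1 with Dhrs3 (0.56), Aldh1a1 with Rarb (-0.56) and Rarb with Wt1 (-0.69) were the remaining pairs past 0.5, and the values for Aldh1a2 with Crabp2 (0.33), Aldh1a1 with Rarb (-0.37) and Rarb with Wt1 (-0.21) were nearer to 0 without the 2 farthest libraries. Other pairs moved the other way, with Aldh1a1 and Upk3b going from 0.38 to 0.54, Aldh1a1 and Msln from 0.45 to 0.56 and Rarb and Cyp26b1 from 0.34 to 0.56. Within TAC-Veh, replicate 1 had the highest Aldh1a1 and Wt1 and the lowest Rarb, and replicate 2 had the highest Aldh1a2, Crabp2, Upk3b and Msln.

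Other genes of the mesothelium were high in some of the same mice. The summed reads of Upk1b, Lrrn4, Muc16, Krt19 and Bnc1, chosen as low mesothelial markers after their values were seen, were 20, 5, 5 and 0 in Sham-Veh and 8, 7, 7 and 12 in Sham-THZ1. They were 11, 62, 8 and 35 in TAC-Veh and 3, 58, 43 and 22 in TAC-THZ1. Replicate 1 was highest in Sham-Veh, replicate 2 in TAC-Veh and in TAC-THZ1, and replicate 1 was lowest in TAC-THZ1, each as for Upk3b and Msln. In Sham-THZ1 the orders differed, with the sum highest in replicate 4, Upk3b in replicate 1 and Msln in replicate 2. The authors' methods give the RNA as taken from a piece of the heart ventricles. How much of the heart surface each piece held is not given in the sources used here. Its part in the values of Upk3b and Msln was not tested.

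**Figure D4:**
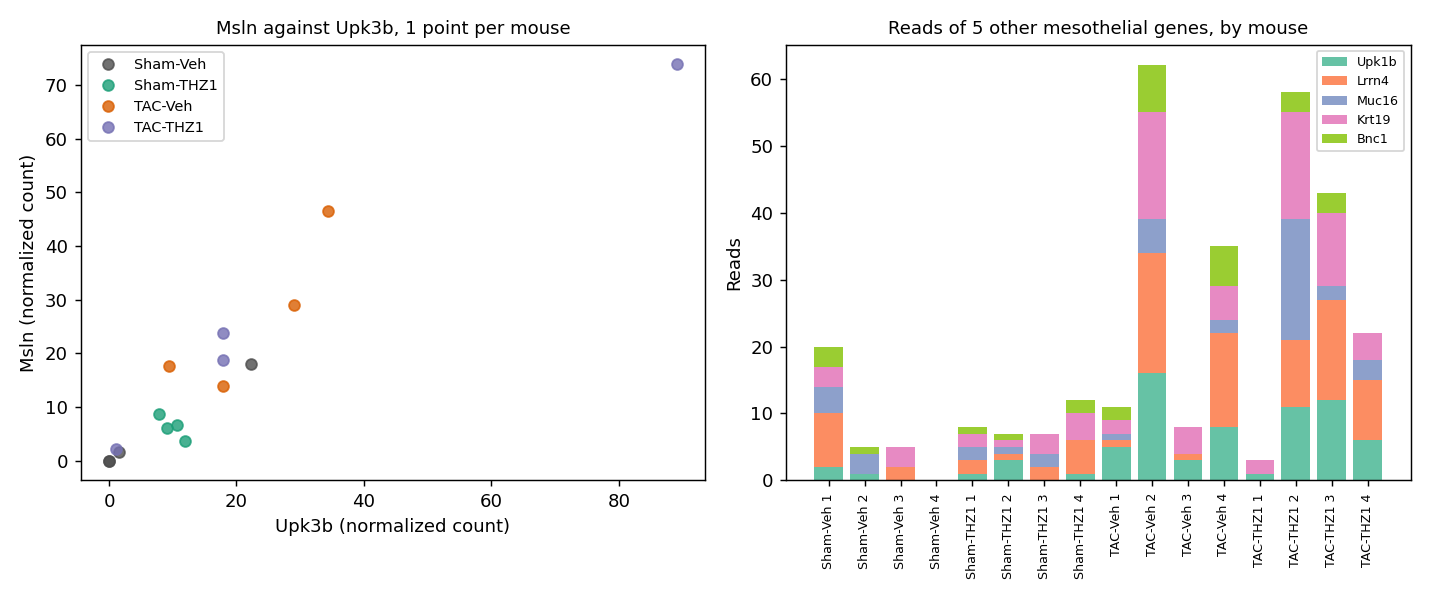
Left, normalized counts of Msln (y axis) against Upk3b (x axis), 1 point per mouse, coloured by group. The points rise together to replicate 2 of TAC-THZ1 at 89.1 and 73.8, and 2 Sham-Veh mice lie on each other at 0. Right, reads of 5 other mesothelial genes stacked by mouse, highest in replicate 2 of TAC-Veh (62) and of TAC-THZ1 (58) and at 0 in replicate 4 of Sham-Veh.

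For the other genes, the nearest by the same measure, Pearson r of the deviations from the group means over 16 libraries, were Ptpn4, Dctn3 and Taf13 for Aldh1a1 (0.89 to 0.88) and Fam111a, Ccl12 and Kctd11 for Aldh1a2 (0.93 to 0.91). They were Glb1l, Stx11 and Sp140 for Crabp2 (0.89 to 0.87), Polr3b, Kctd7 and Nol9 for Rarb (0.96 to 0.92) and Frs2, Gatad2b and Dnmbp for Cyp26b1 (0.83 to 0.76). For Dhrs3 they were 1700024N20Rik, Cdv3 and Sfxn5 (0.79 to 0.78), and for Wt1 Rnf169, Tead4 and Sox17 (0.91 to 0.90). After Msln, Upk3b was nearest to H2afx and Opn3 (0.85 and 0.81), and after Upk3b, Msln was nearest to Rgag4 and Sertad3 (0.89 and 0.80). With 13331 genes searched over 16 libraries, high values arise easily, and these are given as a description.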

How the data were processed

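The authors aligned single-end reads of 40 bases to mm9 with TopHat2 2.1.1, counted them per GENCODE gene with htseq-count in reverse-stranded mode, and deposited counts divided by DESeq2 size factors, a signal named here normalized count. Dividing by the smallest step gave whole reads for 100% of values (tolerance 0.001). Positions and exon lengths came from GENCODE on NCBIM37. limma 3.58.1 in R 4.3.3 was fitted on log2(normalized count + 1) over all 16 libraries, with 1 mean per group and eBayes with a trend. edgeR 4.0.16 and DESeq2 1.42.0 on the recovered reads were alternatives. Each was tested on simulated counts with the same dispersion for every gene and group. That test does not cover genes as variable as Upk3b or groups of unequal spread. Mice are taken as separate because the labels list separate samples, and no batch or date is given. Members, lists and markers were chosen with earlier results of these data known. Genes named outside the 9 were up to 4 per list and direction with the largest change, plus receptors, enzymes and binding proteins fixed by name, and the 3 genes most like each member. Same-numbered replicates did not deviate together, so they were not paired. Figures were drawn with Matplotlib 3.10.9. A listed gene is counted in its list but not reported by name here.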

Additional observations from a re-analysis of the deposited data

Results flagged for a closer look

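Among 36 sets of 4 mice (9 genes in 4 groups), 3 held a mouse far from the others by Dixon's criterion, which chance alone gives in about 1 of 20 sets. Cyp26b1 was at 184 normalized counts in replicate 4 of TAC-Veh, against 16.4 to 34.1 in the other 3. Replicate 1 of Sham-Veh had 22.3 normalized counts of Upk3b and 18.0 of Msln, against 0 to 1.60 in the other 3 for both genes, which vary together and are not independent. The change with THZ1 was not the same in TAC as in sham for Aldh1a1, with an interaction of -0.96 on the log2 scale (adjusted p = 0.0177, limma), with all 4 TAC-THZ1 mice below all TAC-Veh mice and overlapping sham groups. The interaction of Rarb was 0.90 (adjusted p = 0.0398, limma), with all 4 TAC-THZ1 mice above all TAC-Veh mice.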

How the results depend on the processing

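Of 1236 values recomputed for 45 results of the 9 genes, 1159 kept their direction and side of the threshold. The calls of Aldh1a1, Aldh1a2, Crabp2 and Rarb with TAC and of Aldh1a1 and Rarb with THZ1 in TAC held under every alternative in which the gene was tested. The count of called genes with TAC was 4 instead of 7 with a minimum mean of 50, which leaves out Crabp2, Upk3b and Msln, and 4 with DESeq2. With THZ1 in TAC it was 2 instead of 4 with array weights and 2 to 4 without single libraries. For TAC under THZ1 it was 1 instead of 0 with the groups compared alone and with DESeq2, 2 with array weights, and 0 to 2 without single libraries. For the interaction it was 1 instead of 2 with no filter, 0 with a fold threshold added, and 1 to 2 without single libraries. Beyond these the cause was not tested. Signs turned for values near 0 or with wide intervals. Wt1 with TAC was 0.0047 with a pseudocount of 10, 0.015 with upper quartile scaling, 0.086 with edgeR, 0.095 with DESeq2 and -0.29 to 0.16 without single libraries. Wt1 with THZ1 in TAC was -0.012 with edgeR, -0.022 with DESeq2 and -0.087 to 0.35 without single libraries. Wt1 for TAC under THZ1 was -0.028 with quantile scaling, -0.011 with array weights and -0.048 to 0.066 without single libraries, with THZ1 in sham -0.0021 to 0.11, and for the interaction -0.051 with edgeR, -0.065 with DESeq2 and -0.13 to 0.31. With THZ1 in TAC, Upk3b was 0.35 with edgeR, 0.47 with DESeq2 and -1.24 to 0.57 without single libraries, and Msln 0.043, 0.14 and -1.11 to 0.40. Without single libraries, values with THZ1 in sham were -0.16 to 0.025 for Aldh1a1, -0.43 to 0.16 for Crabp2 and -0.023 to 1.14 for Cyp26b1, and for TAC under THZ1 -1.05 to 0.11 for Cyp26b1 and -0.25 to 1.56 for Upk3b. The replicate block, fitted although 3 of 24 same-numbered pairs had a correlation over 0.1, left the counts at 7 with TAC and 3 with THZ1 in TAC, where Crabp2 lost its call (adjusted p = 0.0519). Depth limits Crabp2, Upk3b and Msln, which had 0 to 74 reads. Over all genes, those called with THZ1 in TAC (2019 higher, 1899 lower) were 583 and 816 with the groups compared alone and 1310 and 1102 with array weights. With THZ1 in sham (3 and 6) they were 287 and 178, 254 and 259, and with DESeq2 13 and 20. Array weights gave 2379 and 2632 for TAC under THZ1 (1514 and 1706). Without single libraries the interaction (587 and 749) ranged from 246 and 444 to 1243 and 1236.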
